A study of Mus musculus with 9 samples.

Results

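Gzf1 knockout was examined in RGM cells, a mouse embryonic stem cell line, by setting the 2 knockout libraries against the 2 wild-type libraries of that line. These are 4 of the 9 libraries of the series, and they are the only RGM libraries in it. All 4 were sequenced in run2, and they differ by label only in genotype and replicate number. The other 5 libraries belong to run1, with knockout cells of the V6.5 line and wild-type cells of the V6.5 and Cas9-GFP lines, and served here only to read the same genes in libraries that the RGM comparison did not use. Cells of both genotypes were grown with LIF and serum on irradiated embryonic fibroblasts, which were depleted before harvest. Poly(A)+ RNA was counted at transcript 3′ ends with MARS-seq2.0. The position of the Gzf1 edit, the number of knockout clones and whether replicates were separate cultures are not stated in the labels. The p-values therefore reflect the spread between these libraries alone, and that spread may be technical.

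Gzf1 encodes a nuclear protein with a BTB domain and a row of zinc fingers that binds DNA and can repress transcription. The title of the series places it with Zfp57, a zinc finger protein that protects methylated imprints, at the Dlk1-Dio3 domain. In that imprinted domain the maternal chromosome transcribes the noncoding RNAs Meg3, Rian and Mirg, which host small nucleolar RNAs and microRNAs, while the paternal chromosome transcribes the protein-coding genes Dlk1, Rtl1 and Dio3. The question put to the RGM libraries is which genes differ without Gzf1, and whether the domain is among them.

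The 4 libraries held 2568489 to 3704162 counts over genes, with 15744 to 16346 genes detected in each, and 11553 genes passed the filter on low counts. A count of 3, used as the floor of detection, was worth 0.81 to 1.17 CPM (counts per 1000000 counts). Floors cover counting error only. Replicates differed by more than sampling noise, with a chi-square statistic per degree of freedom of 2.48 for the wild-type pair and 3.1 for the knockout pair. The Pearson correlation over tested genes was 0.9844 for the wild-type pair and 0.9793 for the knockout pair. Between libraries of different genotype it was 0.977 to 0.984. The knockout replicates were thus no more alike than some libraries of different genotype. All 10 stem cell markers were detected in every library, among them Sox2, Nanog and Utf1, and their summed level was 6351 and 6842 CPM in the wild-type pair and 6325 and 5950 CPM in the knockout pair, replicate 1 first as in all pairs below. Of 20 fibroblast markers 19 had a row in the table and all 19 had counts. Their sum was 6398 and 5653 CPM in the wild-type pair, 5009 CPM in knockout replicate 1 and 7482 CPM in knockout replicate 2, so that the knockout libraries held the lowest and the highest value. The 5 markers of primitive endoderm summed to 35.7 and 33.9 CPM in the wild-type pair and 34.8 and 45.7 CPM in the knockout pair, led by Dab2, while Sox17 stayed under the floor in all 4 libraries. The 5 trophoblast markers summed to 87.0 and 95.7 CPM in the wild-type pair and 111 and 76.6 CPM in the knockout pair. Those counts came mainly from Tfap2c, Krt8 and Krt18, and Cdx2 and Elf5 stayed under the floor in all 4 libraries.

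Gzf1 itself measured 28.6 and 29.9 CPM in the wild-type pair and 5.43 and 14.1 CPM in the knockout pair. The genotypes did not overlap, and knockout replicate 2 kept more of the transcript than replicate 1. The log2 fold change of knockout over wild type, called the log2 change from here on, was -1.63 (SE 0.30, unadjusted p = 4.6e-05), and its adjusted p of 0.053 in edgeR's quasi-likelihood F test missed the threshold of 0.05. Without knockout replicate 1 the log2 change was -1.05 (adjusted p = 0.029), and without knockout replicate 2 it was -2.42 (adjusted p = 1.7e-09). Without wild-type replicate 1 or 2 Gzf1 was not called (adjusted p = 0.84 and 0.57), nor was it in DESeq2 (0.14). A count of 3′ ends need not follow an edit elsewhere in the gene, so these levels do not check the knockout. The tested genes that start within 200 kb of Gzf1, Nxt1 and Cst3, had log2 changes of 0.07 and -0.17 (unadjusted p = 0.56 and 0.12).

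Between knockout and wild-type RGM cells 9 genes fell and 0 rose at the adjusted threshold. The 9 called genes are 0.0779% of those tested. They were Hectd3, AK207688, Rbmxl1, Cd320, Meg3, Mirg, Mest, Dnajb12 and Eef1g, with log2 changes from -2.83 to -0.57. At an unadjusted p under 0.05, 390 genes were lower (3.38% of those tested) and 302 were higher (2.61%). The knockout pair lay below the wild-type pair, with no overlap, for 2076 genes, 18% of those tested, and above both for 1964, 17%, so a separation of the 2 genotypes alone is common in 4 libraries. The median log2 change of all tested genes was 0.00, and 90% of the genes lay between -0.43 and 0.40. An exact permutation test of a single gene in 2 against 2 libraries cannot give a two-sided p below 0.33, so the calls rest on the spread that edgeR estimates across genes. The count depended on single libraries. It was 3 without wild-type replicate 1, 5 without wild-type replicate 2, 103 without knockout replicate 1 and 24 without knockout replicate 2, and Hectd3 and Meg3 were called in each of these 4 fits. The same contrast in a fit to all 9 libraries, which changes both the estimate of the spread and the set of genes tested, left 0 calls, with 104 genes at an unadjusted p under 0.05.

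**Figure D1:**
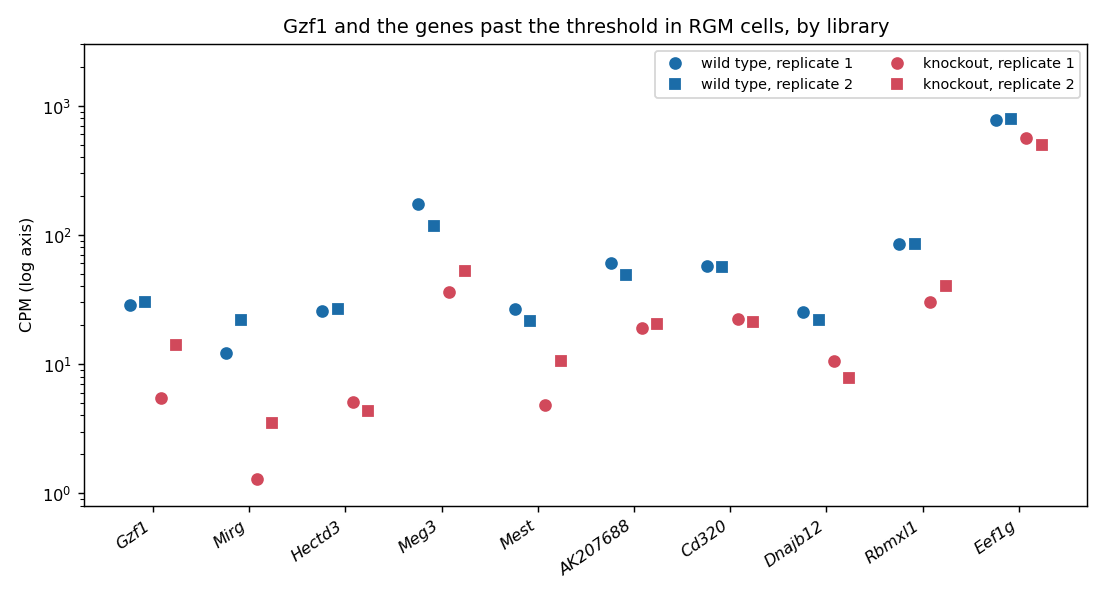
Level of Gzf1 and of the 9 genes past the threshold, in CPM on a log axis, with 1 point for each of the 4 RGM libraries (blue for wild type, red for knockout, circles for replicate 1 and squares for replicate 2). Both knockout points lie below both wild-type points for all 10 genes, which for the 9 called genes is a property of having been called.

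**Figure D2:**
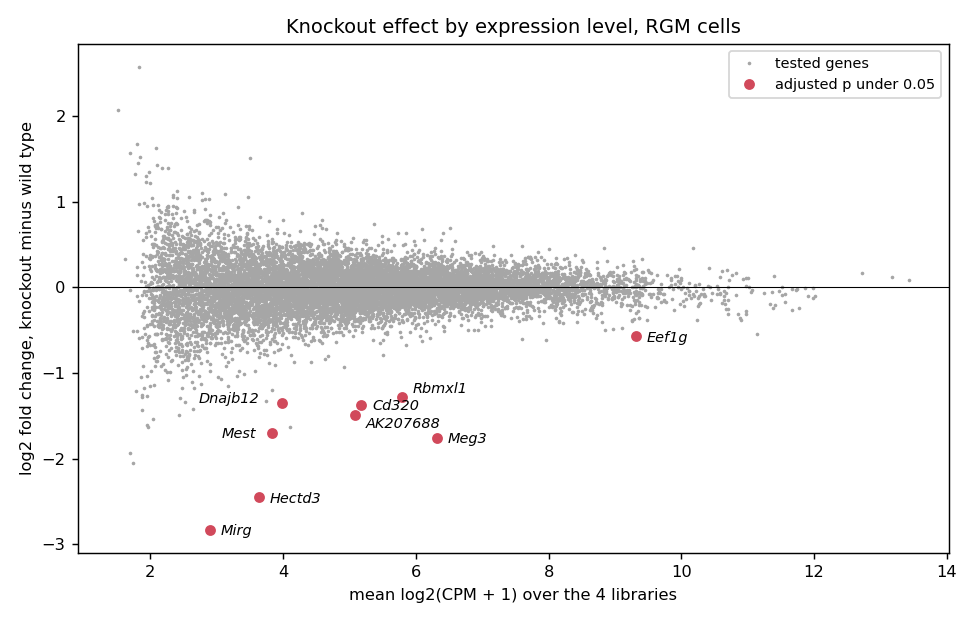
Log2 fold change, knockout minus wild type, of the 11553 tested genes against the mean log2(CPM + 1) of the 4 RGM libraries, with the 9 genes past the adjusted threshold in red. All red points are below 0, and Mirg and Hectd3 lie lowest.

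The maternal noncoding RNAs of the Dlk1-Dio3 domain fell in the knockout, while Dlk1 did not pass the test. Meg3, which lies at 109541001 to 109571726 on chromosome 12 (mm10), measured 175 and 117 CPM in the wild-type pair and 35.8 and 52.0 CPM in the knockout pair. It was 3.38-fold lower (log2 change -1.76, SE 0.21, adjusted p = 0.0089). Mirg, at 109729764 to 109749460 on the same chromosome, measured 12.2 and 22.0 CPM in the wild-type pair and 1.28 and 3.52 CPM in the knockout pair, from 45, 56, 4 and 9 counts. It was 7.12-fold lower (log2 change -2.83, SE 0.45, adjusted p = 0.0091), and without wild-type replicate 2 its adjusted p was 0.18. Rian, which hosts small nucleolar RNAs between them, did not pass the filter on low counts. Its row held 8 and 5 counts in wild-type and 0 and 0 in knockout libraries, at least 3.92-fold lower over the group against a floor of 3 counts.

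Paternally expressed genes of the domain were scarce in RGM cells. Dlk1, a transmembrane relative of Notch ligands, had 17 and 18 counts in wild-type and 12 and 16 in knockout libraries, at 4.59, 7.09, 3.83 and 6.26 CPM, and the genotypes overlapped. Its log2 change was -0.19 (SE 0.41, adjusted p = 0.99), and it turned positive without wild-type replicate 2 (0.11) or without knockout replicate 1 (0.14). Dio3, which inactivates thyroid hormone, had 6 and 1 counts in wild-type and 7 and 3 in knockout libraries. Rtl1 had 0 counts in all 4, which allows up to 0.81 to 1.17 CPM. Across the domain, from Dlk1 to Dio3 (109452823 to 110281097), 59 rows of the table lie inside, 8 held a count in RGM cells and 3 were tested, so the domain is read here through Meg3, Mirg and Dlk1. Of 19 tested genes in the list for the flanks of the domain 0 were called, with a median log2 change of 0.02. Ccnk, which encodes a cyclin that partners transcription kinases, had the smallest p of them, with 84.9 and 73.6 CPM in the wild-type pair and 118 and 113 CPM in the knockout pair (log2 change 0.54, SE 0.13, adjusted p = 0.17).

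The rows of Meg3 and Mirg are merged in the table with those of microRNAs that lie inside these transcripts, and some of their mature sequences are printed to show what the lowered transcripts carry. The sequences are from RefSeq (GRCm38.p6), 5′ to 3′, with the seed, bases 2 to 8, in capitals.
miR-770-5p, in the Meg3 row: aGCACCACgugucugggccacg
miR-382-5p, in the Mirg row: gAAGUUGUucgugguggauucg
miR-134-5p, in the Mirg row: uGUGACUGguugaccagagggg
miR-485-3p, in the Mirg row: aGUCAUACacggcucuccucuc
miR-369-3p, in the Mirg row: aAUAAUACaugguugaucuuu
miR-410-3p, in the Mirg row: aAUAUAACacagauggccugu
The 9 microRNA symbols of the 2 rows matched 16 mature microRNAs, which have 16 different seeds, so no seed is shared among them. Counting of poly(A)+ 3′ ends measures the host transcripts and not the mature microRNAs, whose levels were not measured.

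The element described for binding of Gzf1 starts with TGCGC and ends with TATA, and it was searched on both strands as TGCGCNNNTATA in the RefSeq promoter windows (250 bases before to 50 after a gene's start). It occurred in 4 of 32851 windows (0.0122%), and in 2 of 11455 windows of tested genes (0.0175%). Those of tested genes were Meg3 and Irak2, which encodes a kinase of interleukin-1 signalling. In the Meg3 window the match lies on the gene's strand, 35 to 24 bases before the start, and it stands in capitals below, in the 120 bases before the start at chr12:109540876-109540995 (GRCm38.p6, plus strand).
Meg3 upstream: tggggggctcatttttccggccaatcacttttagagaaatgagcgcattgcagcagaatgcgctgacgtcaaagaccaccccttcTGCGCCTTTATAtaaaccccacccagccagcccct
Irak2 measured 12.7 and 16.5 CPM in the wild-type pair and 14.4 and 19.16 CPM in the knockout pair, with a log2 change of 0.21 (SE 0.26, adjusted p = 0.97). When the middle bases were also held to those of the described element, 1 window was left, that of Foxd4, a forkhead gene with 0 counts in 3 of the 4 RGM libraries. The Meg3 match thus holds for the outer letters, while its middle bases, CTT, do not all fit the described element. A match is a description of these letters, and binding was not measured here.

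The clearest single-gene differences outside the domain were in genes with unrelated known roles. Hectd3, a HECT-type E3 ubiquitin ligase (chromosome 4, 116995317 to 117005277), measured 25.7 and 26.8 CPM in the wild-type pair and 5.11 and 4.30 CPM in the knockout pair. The replicates agree closely in each genotype, and the knockout level was 5.48-fold lower (log2 change -2.45, SE 0.28, adjusted p = 0.00022). Among 24 tested HECT ligases Hectd3 was the only one called, and the list had a median log2 change of -0.01. Smurf2, which targets receptors of the TGF-beta family, was the other member with an unadjusted p under 0.05 (log2 change -0.41, SE 0.20, unadjusted p = 0.048). The 11 tested genes starting within 200 kb of Hectd3 held 0 calls and a median of 0.07. The nearest, Urod, an enzyme of haem synthesis whose start lies 904 bases away, had a log2 change of 0.32 (SE 0.14, adjusted p = 0.82).

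Cd320, the receptor that takes up vitamin B12 carried by transcobalamin (chromosome 17, 33843091 to 33849774), measured 57.0 and 55.9 CPM in the wild-type pair and 22.4 and 21.1 CPM in the knockout pair. It was 2.59-fold lower (log2 change -1.37, SE 0.17, adjusted p = 0.00024), and its adjusted p was 0.053 without wild-type replicate 1. Of 24 tested genes of vitamin B12 and folate metabolism it was the only one called, and the median of the list was 0.02. Tcn2, which encodes transcobalamin, the ligand of Cd320, measured 54.9 and 57.9 CPM in the wild-type pair and 48.9 and 38.3 CPM in the knockout pair (log2 change -0.36, SE 0.16, adjusted p = 0.82). The 24 tested genes starting within 200 kb of Cd320 held 0 calls, with a median of -0.01.

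Dnajb12, a co-chaperone in the membrane of the endoplasmic reticulum (chromosome 10, 59879556 to 59899302), measured 25.1 and 22.0 CPM in the wild-type pair and 10.5 and 7.82 CPM in the knockout pair. It was 2.55-fold lower (log2 change -1.35, SE 0.26, adjusted p = 0.044). Leaving out wild-type replicate 1 (adjusted p = 0.84) or wild-type replicate 2 (0.2) ended this call, and DESeq2 did not make it (adjusted p = 0.49). Of 38 chaperone and unfolded-protein genes tested it was the only one called, and the median was -0.04. At an unadjusted p under 0.05, 5 of the list were lower (against 3.38% of all tested genes), with the heat shock genes Hspa1a (log2 change -0.52) and Hspa1b (-0.37) among them, and 3 were higher (against 2.61%), with the ubiquitin ligase Syvn1 (0.49) among them. The 5 became 2 without wild-type replicate 1, wild-type replicate 2 or knockout replicate 1, and 1 in DESeq2. The 3 became 1 without wild-type replicate 1, 2 without wild-type replicate 2 and 0 in DESeq2. AK207688, a transcript named by its accession only and without an annotated position or role, measured 60.0 and 49.2 CPM in the wild-type pair and 18.8 and 20.3 CPM in the knockout pair. It was 2.81-fold lower (log2 change -1.49, SE 0.19, adjusted p = 0.00024), and its adjusted p was 0.093 without wild-type replicate 1.

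Rbmxl1 and Slc10a7 are divergent neighbours whose annotated starts lie 448 bases apart on chromosome 8. Rbmxl1, a relative of the splicing regulator Rbmx (78505269 to 78508898, minus strand), measured 84.9 and 84.3 CPM in the wild-type pair and 30.3 and 39.9 CPM in the knockout pair. It was 2.43-fold lower (log2 change -1.28, SE 0.16, adjusted p = 0.00024), with an adjusted p of 0.053 without wild-type replicate 1. Slc10a7, a membrane carrier of the bile acid transporter family (78509346 to 78734003, plus strand), measured 18.4 and 20.9 CPM in the wild-type pair and 7.34 and 8.21 CPM in the knockout pair. The knockout pair did not reach the wild-type levels, and the log2 change was -1.33 (SE 0.28, unadjusted p = 8.5e-05, adjusted p = 0.07). Slc10a7 passed the threshold without knockout replicate 1 (adjusted p = 0.046) or 2 (adjusted p = 0.017). It did not when wild-type replicate 1 or 2 was left out (adjusted p = 0.83 and 0.71), nor in DESeq2 (adjusted p = 0.9). The list of Rbmxl1, its relatives and Slc10a7 had 5 tested genes and a median of -0.10. Rbmx had a log2 change of 0.15 (SE 0.26, adjusted p = 0.98). Rbmxl2 measured 281 and 271 CPM in the wild-type pair and 321 and 380 CPM in the knockout pair (log2 change 0.34, SE 0.11, adjusted p = 0.56). Rbmxl1, Rbmx and Rbmxl2 are related in sequence, and how reads shared between copies were counted is not stated.

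Sequence upstream of each gene of the pair is shown because both were low in the knockout, together with that of Cd320. Each line gives the 150 bases before the RefSeq start of the gene on its own strand (GRCm38.p6), with TGCGC, the start of the element above, in capitals. Its reverse complement does not occur in these 3 stretches. The windows are chr8:78508929-78509078 (minus strand) for Rbmxl1, chr8:78509178-78509327 (plus strand) for Slc10a7 and chr17:33842941-33843090 (plus strand) for Cd320.
Rbmxl1 upstream: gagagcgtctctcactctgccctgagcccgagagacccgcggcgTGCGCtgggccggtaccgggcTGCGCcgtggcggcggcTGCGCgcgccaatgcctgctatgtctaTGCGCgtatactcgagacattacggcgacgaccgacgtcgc
Slc10a7 upstream: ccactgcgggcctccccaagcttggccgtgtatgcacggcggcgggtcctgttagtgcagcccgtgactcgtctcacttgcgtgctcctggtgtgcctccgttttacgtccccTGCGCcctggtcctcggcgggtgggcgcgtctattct
Cd320 upstream: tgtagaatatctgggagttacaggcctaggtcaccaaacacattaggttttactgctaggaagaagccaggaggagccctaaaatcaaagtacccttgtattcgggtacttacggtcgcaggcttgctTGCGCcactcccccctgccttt
Windows were found for 9 of the 11 genes made up of the called genes, Gzf1 and Slc10a7, and 9 of their 14 windows held TGCGC. These letters are common, since 51.4% of the windows of tested genes and 30.4% of all windows held them. The windows of Hectd3 and Mirg held none.

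Mest, a paternally expressed imprinted gene that encodes an enzyme of the alpha/beta hydrolase fold (chromosome 6, 30723547 to 30748465), measured 26.5 and 21.7 CPM in the wild-type pair and 4.79 and 10.6 CPM in the knockout pair. It was 3.25-fold lower (log2 change -1.70, SE 0.30, adjusted p = 0.022). Leaving out wild-type replicate 1 (adjusted p = 0.84) or wild-type replicate 2 (0.11) ended this call too, and DESeq2 gave an adjusted p of 0.16. The tested genes starting within 200 kb of Mest, Cep41 and Copg2, had log2 changes of 0.25 and -0.12, both with an adjusted p of 0.97. Mest was the only one called among 26 tested genes of the paternal list, drawn up for imprinted genes outside the Dlk1-Dio3 domain. Of these 18 were above 0 and 8 below, with a median of 0.05. Which allele was expressed was not measured, and not every member, such as Gnas, need be read from the paternal allele alone. Ndn, a MAGE family protein gene of the Prader-Willi region, measured 19.5 and 15.7 CPM in the wild-type pair and 11.5 and 9.38 CPM in the knockout pair (log2 change -0.76, SE 0.27, adjusted p = 0.62). Of 21 tested genes of the maternal list 0 were called, 14 were below 0 and the median was -0.04. In that list H19, a noncoding RNA whose row is merged with its microRNA, measured 372 and 396 CPM in the wild-type pair and 289 and 331 CPM in the knockout pair (log2 change -0.31, SE 0.11, unadjusted p = 0.01, adjusted p = 0.62). Of 41 tested genes for DNA methylation or the protection of imprints 0 were called, and the median was 0.01. Zfp57 measured 38.1 and 42.5 CPM in the wild-type pair and 36.1 and 39.1 CPM in the knockout pair (log2 change -0.10, SE 0.17, adjusted p = 0.98).

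**Figure D3:**
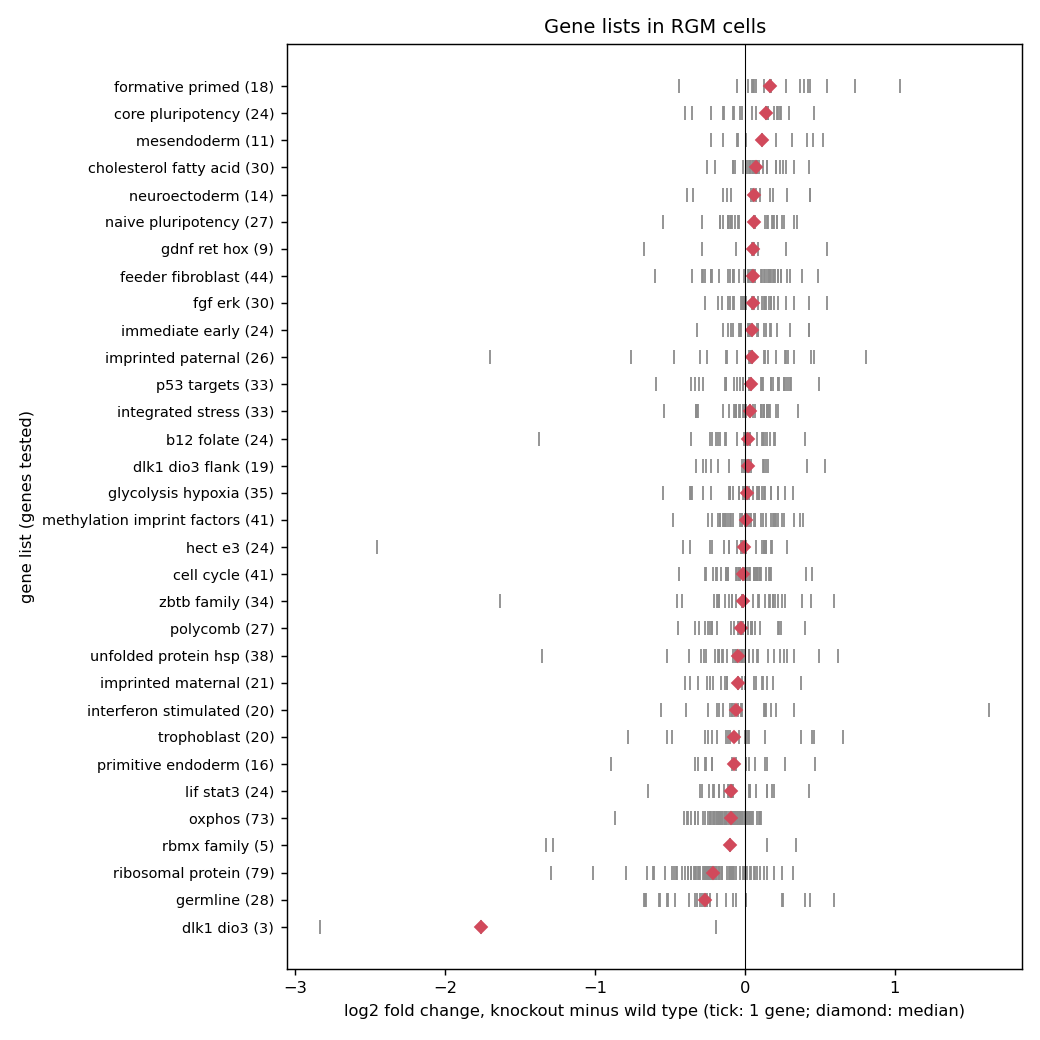
Log2 fold change, knockout minus wild type, of the tested members of 32 gene lists in RGM cells, with 1 tick for each gene, a diamond at the median of each list and the number of tested genes in parentheses. Apart from the Dlk1-Dio3 list, with 3 genes, the lists have medians between -0.26 and 0.17, and most of the called genes stand alone at the left of their list.

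Eef1g, the gamma subunit of the translation elongation factor complex that recharges Eef1a1 (chromosome 19, 8967041 to 8978479), had the smallest fold of the called genes. It measured 771 and 785 CPM in the wild-type pair and 557 and 491 CPM in the knockout pair, 1.48-fold lower (log2 change -0.57, SE 0.11, adjusted p = 0.044). It kept its call in 1 of the 4 fits without a library, that without knockout replicate 1, and its adjusted p reached 0.84 without wild-type replicate 1, 0.57 without wild-type replicate 2 and 0.12 without knockout replicate 2. Its partners were not called. Eef1a1, which brings aminoacyl-tRNA to the ribosome, had a log2 change of -0.04, and the exchange factor subunits Eef1b2 and Eef1d had -0.05 and -0.02 (adjusted p = 0.9956, 0.99 and 0.9958). Of the 19 tested genes starting within 200 kb of Eef1g 0 were called. One of them, Asrgl1, an asparaginase-like enzyme that starts 168.6 kb away, measured 41.6 and 39.4 CPM in the wild-type pair and 23.3 and 19.16 CPM in the knockout pair (log2 change -0.92, SE 0.19, adjusted p = 0.068).

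Ribosomal protein genes were mostly below 0 in the knockout, without any call. Of 79 tested 65 had a negative log2 change, 29 (36.7%) were lower at an unadjusted p under 0.05 and 0 were higher, against 3.38% lower among all tested genes, and 0 passed the adjusted threshold. The median was -0.21, against 0.00 over all genes. Rpl35 measured 245 and 233 CPM in the wild-type pair and 174 and 140 CPM in the knockout pair (log2 change -0.60, SE 0.12, adjusted p = 0.053). Rps16 measured 271 and 346 CPM in the wild-type pair and 209 and 193 CPM in the knockout pair (log2 change -0.61, SE 0.12, adjusted p = 0.053). Highly expressed members differed less, with Rps3 with 3986 and 4664 CPM in the wild-type pair and 4249 and 3800 CPM in the knockout pair (log2 change -0.10, SE 0.12). The summed level of the list was 78491 and 86613 CPM in the wild-type pair and 76251 and 72411 CPM in the knockout pair. Wild-type replicate 2 was highest and knockout replicate 2 lowest, and the genotypes did not overlap. The number lower at an unadjusted p under 0.05 was 12 without wild-type replicate 2, 21 without wild-type replicate 1, 18 without knockout replicate 2 32 without knockout replicate 1, 18 with DESeq2 and 7 in the fit to all 9 libraries. Without the low-count filter 5 ribosomal protein genes were called.

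Nuclear-encoded subunits of oxidative phosphorylation were also mostly below 0, without any call. Of 73 tested 58 had a negative log2 change, 13 (17.8%) were lower at an unadjusted p under 0.05, 0 were higher and 0 were called, with a median of -0.09, against 3.38% lower and a median of 0.00 over all tested genes. The 13 became 7 without wild-type replicate 2, 8 without wild-type replicate 1 or knockout replicate 2, 7 in DESeq2 and 1 in the fit to all 9 libraries. Without knockout replicate 1 the count was 14 and the median -0.15. Ndufs3, a core subunit of complex I, measured 29.2 and 25.6 CPM in the wild-type pair and 15.3 and 14.9 CPM in the knockout pair (log2 change -0.87, SE 0.22, adjusted p = 0.24). Cox8a, a subunit of cytochrome oxidase, measured 817 and 818 CPM in the wild-type pair and 667 and 588 CPM in the knockout pair (log2 change -0.38, SE 0.11, adjusted p = 0.43). The most abundant subunit measured, Atp5b of the ATP synthase, had 0.01 (SE 0.11). In the run1 libraries the ribosomal list and the oxidative phosphorylation list each had a median of -0.01. The wider list of feeder fibroblast genes, 44 tested, summed to 10478 and 9396 CPM in the wild-type pair and 8090 and 12218 CPM in the knockout pair, and did not order the libraries by genotype. Without knockout replicate 1, 24 of 45 fibroblast genes were higher at an unadjusted p under 0.05, and without knockout replicate 2, 21 of 44 were lower. Fewer cells of a type and less RNA per cell cannot be told apart in bulk libraries. The part of fibroblast RNA in the calls was not tested. With fibroblast and ribosomal genes left out before scaling, a setting chosen after the data were seen that changes the scaling and not the counts of other genes, 10 genes were called, which were all 9 and Gzf1.

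**Figure D4:**
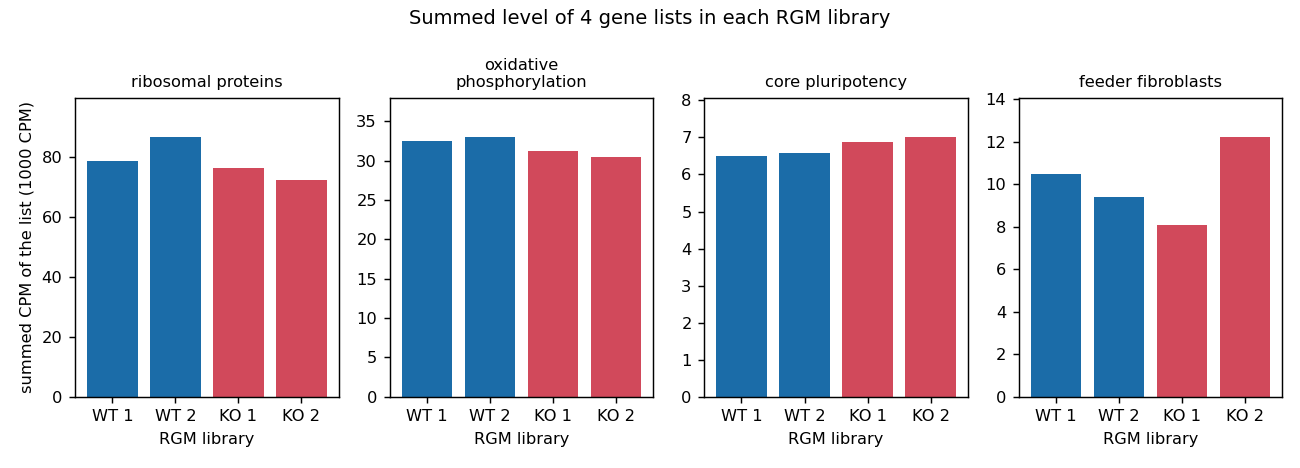
Summed CPM of the ribosomal protein, oxidative phosphorylation, core pluripotency and feeder fibroblast lists in each RGM library (blue for wild type, red for knockout; each bar is 1 library, with no error bar). The ribosomal sum runs from 72411 CPM in knockout replicate 2 to 86613 CPM in wild-type replicate 2, and the fibroblast sum is lowest and highest in the knockout libraries.

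On the higher side no gene passed, and the smallest p-values belonged to genes with modest differences. Tcf7l1, a repressor at Wnt target genes in stem cells, measured 45.4 and 62.2 CPM in the wild-type pair and 84.6 and 85.6 CPM in the knockout pair (log2 change 0.68, SE 0.16, adjusted p = 0.14). Lef1, the Wnt effector of the same family, measured 35.9 and 26.0 CPM in the wild-type pair and 50.5 and 54.7 CPM in the knockout pair (log2 change 0.74, SE 0.18, adjusted p = 0.17). Utf1, a chromatin protein of pluripotent cells, measured 1016 and 946 CPM in the wild-type pair and 1296 and 1409 CPM in the knockout pair (log2 change 0.46, SE 0.11, adjusted p = 0.17). In these 3 genes, which were picked for a small p, both knockout libraries lay above both wild-type libraries, as in 17% of all tested genes. Nudt6, which overlaps the Fgf2 gene on the opposite strand, measured 7.84 and 4.33 CPM in the wild-type pair and 13.4 and 23.5 CPM in the knockout pair (log2 change 1.51, SE 0.34, adjusted p = 0.14). The deposited table does not state strand, so reads of the overlapping genes cannot be separated. Gm14169, a predicted gene, had 4 and 2 counts in wild-type and 24 and 10 in knockout libraries, and its fitted log2 change of 2.58 (SE 0.58, adjusted p = 0.13) depends on the prior count of the model. The other genes among the 12 with the smallest p on this side were AK033180, Cnot3, AK088668, Ccnk, Tmem5, Polr2a and Zfp385a, with log2 changes of 0.48 to 0.69 and adjusted p of 0.11 to 0.26. On the lower side the 12 smallest p-values short of the threshold included Tmsb10, which sequesters actin monomers (-0.50, adjusted p = 0.092). Among them were also Nhp2l1, Srpr, Rpl35a, Myl6 and Rps4x, at -0.67 to -0.47 and adjusted p of 0.13 to 0.2.

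No gene of the pluripotency lists passed the test, and their log2 changes lay on both sides of 0. Of 24 core pluripotency genes tested 15 were above 0 and 9 below, 1 was higher and 1 lower at an unadjusted p under 0.05, and the median was 0.14. Both knockout libraries lay above both wild-type libraries for 13 of the 24, against 17% of all tested genes. Sox2 had a log2 change of 0.08 (SE 0.11), Nanog -0.14 (SE 0.11) and Pou5f1 -0.35 (SE 0.18, adjusted p = 0.87). The one lower at an unadjusted p under 0.05 was Lefty1, an inhibitor of Nodal signalling, with -0.40 (unadjusted p = 0.012). Of 27 naive markers 14 were above 0 and 13 below, 2 were higher and 1 lower at an unadjusted p under 0.05, and the median was 0.06. Dppa5a, an RNA-binding protein of naive cells, measured 2491 and 2999 CPM in the wild-type pair and 2153 and 1610 CPM in the knockout pair (log2 change -0.54, SE 0.14, adjusted p = 0.28). Of 18 formative and primed markers 16 had a positive log2 change, 5 were higher at an unadjusted p under 0.05, 0 were lower and 0 were called, with a median of 0.17, against 2.61% higher and a median of 0.00 over all tested genes. The 5 became 3 without wild-type replicate 1, without knockout replicate 2 or in DESeq2, and 1 in the fit to all 9 libraries. The median was 0.30 without wild-type replicate 2 and 0.29 without knockout replicate 1, where 3 of the list were called higher. The 5 were Lef1, Etv4, an effector of FGF signalling (0.55, adjusted p = 0.47), Otx2, which opens the formative state (0.39, adjusted p = 0.65), and the neural and epiblast factors Zic2 (0.44, adjusted p = 0.62) and Sox3 (1.04, adjusted p = 0.62). Otx2 measured 54.0 and 53.9 CPM in the wild-type pair and 75.0 and 66.5 CPM in the knockout pair. In the run1 libraries log2 changes were 1.12 for Lef1, 0.35 for Etv4, 0.70 for Otx2, -0.83 for Zic2 and 0.01 for Sox3. Their unadjusted p in run1 ran from 0.073 to 0.99. Fgf5, the usual marker of primed epiblast, did not pass the filter and measured 3.24 and 1.97 CPM in the wild-type pair and 2.55 and 7.43 CPM in the knockout pair.

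Most of the germline genes tested had values below 0, and none was called. Of 28 tested 21 had a negative log2 change, 3 were lower at an unadjusted p under 0.05 and 0 were higher, with a median of -0.26. Over all tested genes 5802 of 11553 were negative, 3.38% were lower at that p and the median was 0.00. Without knockout replicate 1 the count was 9 (2 of them called) and the median -0.55. The count was 1 without wild-type replicate 1 (median -0.35), 2 without wild-type replicate 2 (median -0.13), 1 without knockout replicate 2 (median -0.15) and 1 in DESeq2. Sycp3, of the axis of meiotic chromosomes, measured 89.2 and 113 CPM in the wild-type pair and 80.8 and 64.1 CPM in the knockout pair (log2 change -0.47, SE 0.15, adjusted p = 0.54). Rhox9, a homeobox gene of the X-linked Rhox cluster, measured 34.9 and 31.5 CPM in the wild-type pair and 24.9 and 21.5 CPM in the knockout pair (log2 change -0.52, SE 0.19, adjusted p = 0.65). Signalling and stress lists held 0 calls and medians near that of all genes, with 0.05 for FGF and ERK feedback (30 genes), -0.09 for LIF and STAT3 (24 genes), 0.05 for immediate early genes (24 genes) and 0.04 for p53 targets (33 genes). Medians were 0.07 for cholesterol and fatty acid synthesis (30 genes), 0.03 for genes of the integrated stress response (33), 0.01 for glycolysis and hypoxia (35 genes), -0.01 for the cell cycle (41 genes) and -0.02 for Polycomb (27 genes). Of the 30 cholesterol and fatty acid genes 24 were above 0, with 3 higher and 0 lower at an unadjusted p under 0.05. The 3 became 1 in DESeq2. The median of that list ran from -0.0015 without knockout replicate 2 to 0.16 without wild-type replicate 1. Of the 35 glycolysis and hypoxia genes 20 were above 0, with 4 lower and 1 higher at that p. Over all tested genes 2.61% were higher and 3.38% lower. Within the glycolysis list Eno1, which makes phosphoenolpyruvate, measured 716 and 705 CPM in the wild-type pair and 533 and 572 CPM in the knockout pair (log2 change -0.36, SE 0.11, adjusted p = 0.46). The glucose transporter Slc2a1 measured 318 and 328 CPM in the wild-type pair and 401 and 406 CPM in the knockout pair (log2 change 0.32, SE 0.11, adjusted p = 0.56). Lineage lists held 0 calls, with medians of -0.07 for trophoblast (20 genes) and for primitive endoderm (16 genes), 0.06 for neuroectoderm (14 genes) and 0.11 for mesendoderm (11 genes). The remaining lists held 0 calls apart from genes already named, with medians of 0.06 for GDNF and Ret signalling with Hox genes (9 genes), -0.06 for interferon-stimulated genes (20 genes) and -0.01 for the Zbtb family (34 genes), to which Gzf1 belongs. The list for the 2-cell-like state had 1 tested gene, Zfp809, a silencer of retroviruses that is no marker of that state, and Zscan4c, Zscan4d and Dux had 0 counts in all 4 libraries, which allows up to 0.81 to 1.17 CPM.

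The called genes were then read in the 5 run1 libraries, which share no control with the RGM comparison. All 9 were tested there, 8 had a log2 change below 0, against 47% of the 13082 genes tested in run1, and 7 were lower at an unadjusted p under 0.05, against 0.749% of those genes. None of the 9 passed the adjusted threshold in run1, where edgeR called 1 gene (0.00764%, with 204 at an unadjusted p under 0.05), against 3 in DESeq2. Hectd3 measured 23.4 and 25.5 CPM in the run1 wild-type libraries and 5.28, 2.52 and 4.76 CPM in the run1 knockout libraries (log2 change -2.52, SE 0.39, unadjusted p = 3.6e-05). Cd320 measured 67.7 and 69.8 CPM in the 2 run1 wild-type libraries and 25.0, 19.3 and 28.6 CPM in the 3 with the knockout (-1.50, SE 0.26, unadjusted p = 0.00011). Run1 values were -1.11 (SE 0.29, unadjusted p = 0.0027) for Rbmxl1, -1.40 (SE 0.38, unadjusted p = 0.0032) for Dnajb12 and -0.92 (SE 0.34, unadjusted p = 0.019) for AK207688. For Meg3 and Mirg they were -2.75 (SE 0.72, unadjusted p = 0.0062) and -3.47 (SE 0.92, unadjusted p = 0.0065). All run1 knockout libraries lay below both run1 wild-type libraries for each of these 7 genes. These 7 are the genes with a low p in run1, so their separation adds no support of its own. The share of all run1 genes separated in this way was not counted. Slc10a7, short of the threshold in RGM cells, had -1.13 (SE 0.34, unadjusted p = 0.0062) in run1, again without overlap. In the domain, Rian, too scarce to test in RGM cells, had -3.74 in run1 (SE 0.82, unadjusted p = 0.00092), and Dlk1 had -1.15 (SE 0.34, unadjusted p = 0.0052).

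Mest and Eef1g did not follow in run1. Mest measured 223 CPM in the V6.5 and 86.6 CPM in the Cas9-GFP wild-type library of run1. The run1 knockout libraries, all V6.5, had 207, 115 and 111 CPM (log2 change -0.10, SE 0.42, unadjusted p = 0.81). They lay below the V6.5 wild-type library and above the Cas9-GFP one. Cell line and the spread between libraries cannot be told apart in these values. Eef1g measured 507 and 528 CPM in the run1 wild-type libraries and 669, 704 and 544 CPM in those with the knockout, all 3 above both wild-type libraries (log2 change 0.31, SE 0.21, unadjusted p = 0.16). The difference between the RGM and run1 effects, tested over all 9 libraries in edgeR, was -1.57 (SE 0.68, unadjusted p = 0.042) for Mest and -0.86 (SE 0.24, unadjusted p = 0.003) for Eef1g. Over 12645 genes 0 differences passed the adjusted threshold, in edgeR and in DESeq2, with 182 and 112 at an unadjusted p under 0.05. For Hectd3, Cd320, Rbmxl1 and Dnajb12 the difference was 0.06 (SE 0.49), 0.13 (SE 0.32), -0.15 (SE 0.39) and 0.06 (SE 0.43), and for Meg3 it was 1.03 (SE 0.87), with unadjusted p of 0.26 to 0.91. These tests did not detect a difference, and the SEs leave room for one. RGM cells were sequenced only in run2 and the other lines only in run1, so line and run cannot be told apart. Within run1 all knockout libraries are V6.5 and the wild-type libraries are V6.5 and Cas9-GFP, so line and genotype overlap in part. In V6.5 and Cas9-GFP wild-type cells Meg3 measured 258 and 73.8 CPM and Mirg 47.0 and 13.6 CPM, while Hectd3 measured 23.4 and 25.5 CPM. The part of cell line in the run1 values was not tested.

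**Figure D5:**
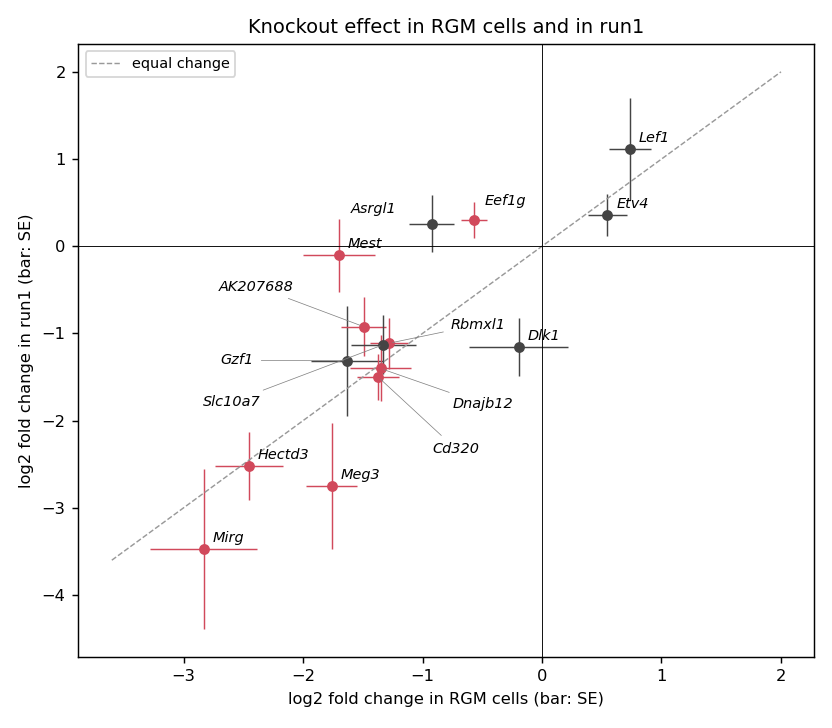
Log2 fold change, knockout minus wild type, of 15 genes in the RGM libraries (x axis) and in the run1 libraries (y axis), each with its SE, with called genes in red and the dashed line marking equal change. Hectd3, Cd320, Rbmxl1 and Dnajb12 lie near the line, while Mest and Eef1g are below 0 in RGM cells and near or above 0 in run1.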

How the data were processed

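The authors deposited 1 table of raw counts per gene symbol (30324 rows). The submitters' processing notes name STAR, DESeq2 and the build mm10. Their versions, the counting tool, the annotation, and how strand and molecular identifiers were used: not given in the sources used here. All 92 spike-in rows, which held 1 count, were dropped, leaving 30232 gene rows, of which 18091 had a count in RGM cells. Of the tested rows 11.4% name several merged symbols.

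The 4 RGM libraries were fitted alone in edgeR 4.0.16 (R 4.3.3): filterByExpr with minimum count 10, TMM scaling, robust quasi-likelihood F test, Benjamini-Hochberg adjustment over all 11553 genes, threshold 0.05. Unless DESeq2 or voom is named, p-values are edgeR's. SEs were taken as |log2 fold change| over the root of F. CPM are per TMM-scaled total of the tested genes, set separately for RGM and run1 libraries. Run1 was fitted alone, and the difference between runs came from a fit with 4 groups. DESeq2 1.42.0 and limma 3.58.1 (voom) were alternatives. The fit was also run on counts simulated from the spread that edgeR estimated in these libraries, which cannot check that estimate.

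The comparison and the 33 gene lists were chosen with earlier results of these data known. A microRNA was taken off the paternal list because its row is that of H19. Named genes were Gzf1, Dlk1-Dio3 genes, called genes, the 12 smallest p on each side short of the threshold and up to 4 members of a list (called first, then most abundant). A gene that this rule chose is not reported here. Others, such as Irak2, Foxd4, Urod, Nxt1, Cst3, Cep41, Smurf2, Tcn2, Zfp57, Rbmx, the Eef1 partners of Eef1g, Ndn, Ndufs3, Cox8a, Sox2, Pou5f1, Lefty1, Otx2, Zic2, Sox3, Fgf5, Rhox9, Syvn1, Hspa1a, Hspa1b, Eno1 and Slc2a1, were added once their values were known. Gene positions come from GENCODE M21 (GRCm38, also called mm10), which held a symbol of 95.9% of tested rows, and sequences are from RefSeq tables.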

Additional observations from a re-analysis of the deposited data

How the results depend on the processing

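The count of 9 genes called in RGM cells became 38 without the low-count filter (14 higher, 24 lower, the 9 among them), 5 with a replicate block, and 0 as a contrast of the fit to all 9 libraries, in which the estimate of spread and the genes tested both change. Without 1 library it ranged from 3 to 103, with 12 fibroblast and 8 ribosomal genes among the 103. It was 9 with RLE scaling, 13 with a minimum count of 30, 6 without the robust option, 7 with DESeq2 and 9 with voom, of which 9, 9, 6, 7 and 8 were among the 9. The replicate numbers are not stated to pair libraries, and replicate 1 of the genotypes did not deviate together (correlation -0.098 across genes), so the block rests on a shared number. The 5 genes kept under it were Hectd3, AK207688, Rbmxl1, Cd320 and Mirg, and Meg3 had an adjusted p of 0.059. The count of 0 differences between RGM cells and run1 became 1 without the filter and was 0 in the other fits. The run1 count of 1 gene became 12 without the filter, 3 with DESeq2 and between 0 and 10 without 1 library. Why these counts moved was not tested. With 1 library of a genotype left out, the lone library is assumed to vary like the others. At 2 libraries a genotype and 2568489 to 3704162 counts a library, Rian, Dio3 and other genes near the floor could not be tested.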
